A study of Mus musculus with 6 samples.

Results

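The genes described here encode the translation initiation and elongation factors of mouse peritoneal macrophages. They were taken as every probe set whose only annotated gene symbol starts with Eif or Eef, leaving out the eIF2 kinases (Eif2ak) and Eif2s3, a rule that reads symbols and no signal. The rule found 60 of the 12488 probe sets on each array, which stand for 43 of 8251 named genes. Of these, 51 probe sets of 39 genes had a signal above the floor on at least 1 array and were tested. The floor, a signal of 98.0, is the 40th percentile of all values; lower signals were set to it before taking log2.

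RNA came from cells washed from the peritoneum, named PEC (peritoneal exudate cells) or peritoneal macrophages in the labels, of mice labelled C57BL/6. The 3 genotypes were wild type (WT), NF-IL6 knockout (KO), which lacks the transcription factor C/EBPβ encoded by Cebpb, and NF-IL6 KI(LAP), a knock-in that bears the name given to activating forms of that factor. Cells of each genotype were left untreated or given bacterial lipopolysaccharide with interferon-γ (LPS + IFN-γ), for 12 h in the labels of KO and KI and with no time given for WT. Each of the 6 groups is 1 array, and the labels do not say whether it stands for 1 animal or a pool, nor the age of the mice or how the knock-in was built.

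Translation starts when the initiator tRNA, carried by eIF2, joins the small ribosomal subunit with eIF1, eIF1A and the large scaffold eIF3. The eIF4F complex, made of the cap-binding eIF4E, an eIF4G scaffold and the helicase eIF4A, brings the messenger RNA to that subunit, and eIF4E-binding proteins block the complex while mTOR is inactive. The exchange factor eIF2B reloads eIF2 with GTP, and eEF1 and eEF2 then drive elongation. Macrophages activated by LPS and interferon-γ make cytokines in bulk while translation is known to be controlled through mTOR, eIF4E and the eIF2 kinases.

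In KO the Cebpb signal was 12.7 untreated and 59.0 stimulated, below the floor on both arrays, against 5492 and 9329 in WT and 2284 and 5890 in KI. Among markers of the cell types an exudate can hold, 8 of 8 macrophage genes lay above the floor on all 6 arrays. Their summed signal was 56719 to 59425 untreated and 39874 to 51601 stimulated. By gene, Adgre1, Fcgr1 and Mertk were higher after stimulation in all 3 genotypes, and Cd68, Csf1r and Lyz2 lower. All 5 B cell markers were above the floor on at least 1 array, summing to 1520 to 6517 untreated and 1646 to 3354 stimulated. Of 5 T and NK cell markers, Cd3d, Cd3e, Cd3g and Cd8a stayed under it on every array. The remaining one, Cd4, was above it on all 6 arrays, at 229 to 385. Eosinophil and mast cell markers (2 of 7 above the floor somewhere) summed to 603 to 1389 untreated and 490 to 897 stimulated. Among them Tpsb2 was above the floor on all 6 arrays, at 291 to 902. Neutrophil markers (5 of 7 above the floor somewhere) summed to 816 to 1560 untreated and 607 to 1896 stimulated, and dendritic cell markers (4 of 5) to 1904 to 7943 and 2743 to 4481. Stimulated arrays had the lower median signal within each genotype (131 to 164 against 147 to 185 untreated) and the lower ratio of 3′ to 5′ probe sets for Gapdh (0.842 to 0.928 against 0.890 to 1.04). The part of these differences in the results was not tested, and in such bulk RNA fewer cells of a type and less RNA per cell cannot be told apart.

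RefSeq promoter windows (GRCm38.p6, 250 bases before to 50 after each start) were at hand for 35 of the 43 genes. Searched on both strands, the E-box CACGTG, a palindrome bound by MYC and USF proteins, stood in a window of 10 of the 35 genes (28.6%), against 8.09% of all 27018 genes with a window. The C/EBP-type pattern TTNNGNAA, of interest because the KO lacks Cebpb, stood in 12 of 35 (34.3%), against 44.2% of all genes. An unbroken run of at least 5 C or T over the start was found in 4 of 35 (11.4%), against 11.8%. The count takes in bases before the start. It therefore does not measure the C and T run that begins messages whose translation follows mTOR. Genes with several windows count once if any holds the motif, and base composition was not matched. The sequences that follow are from the 5 E-box genes that were lower after stimulation in all 3 genotypes, chosen after their values were seen, and from all 4 genes with a run; the E-box is in capitals in the first 5, and the C and T run over the start in the last 4, each 15 bases to either side of the start.
Eef2, chr10:81176576-81176605, plus strand: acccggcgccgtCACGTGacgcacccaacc
Eif1b, chr9:120492570-120492599, plus strand: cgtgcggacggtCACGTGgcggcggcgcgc
Eif3a, chr19:60790654-60790683, minus strand: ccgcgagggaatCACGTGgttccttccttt
Eif3k, chr7:28981915-28981944, minus strand: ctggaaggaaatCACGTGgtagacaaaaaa
Eif4a1, chr11:69672595-69672624, minus strand: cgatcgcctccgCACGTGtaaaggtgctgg
Eef1a1, chr9:78481710-78481739, minus strand: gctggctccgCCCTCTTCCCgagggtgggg
Eif3l, chr15:79075208-79075237, plus strand: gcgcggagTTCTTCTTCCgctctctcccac
Eif3f, chr7:108934400-108934429, plus strand: tctgttctaggCTCTCTCTCTTTCTCggca
Eif2b5, chr16:20498802-20498831, plus strand: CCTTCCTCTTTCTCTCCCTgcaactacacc
The E-box began 43 bases before the start in Eef2, 24 in Eif1b, 44 in Eif3k and 189 in Eif4a1, and lay downstream of the start in Eif3a. The runs were 10 bases long in Eef1a1 and Eif3l, 15 in Eif3f and 21 in Eif2b5, whose run begins upstream of the bases shown. Of the 8 tested genes with an E-box, the 5 printed had a lower signal after stimulation in all 3 genotypes and none of the other 3 (Eif3f, Eif4e and Eif5a) had a shared direction; of the 24 without it, 11 were lower and 5 higher in all 3. Over all named genes tested, 29% were lower and 15.9% higher in all 3 genotypes. With each array centred on its own median these shares were 20.7% and 29.2%, and the genes with and without an E-box were not recounted. Eif3k had a log2 difference of only -0.03 in KO and -0.16 in KI. A matched pattern is a description of these letters and no evidence of a bound factor.

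Stimulation with LPS + IFN-γ raised 2 of the 39 tested genes in the fit over all 6 arrays: Eif6, whose protein keeps the large ribosomal subunit from joining too early, and Eif4ebp1, an inhibitor of the cap-binding protein. No translation factor fell. The test was limma with genotype as a block, adjusted by Benjamini-Hochberg over all 9344 probe sets tested at 0.05; with 1 array per group its p-values measure how far the response varies between genotypes, not between animals. The 2 genes are 5.13% of the 39, and 5.31% of all 6767 named genes rose in the same test; 6.55% of all named genes fell. At an unadjusted p under 0.05 in that limma fit, 13 of the 39 (33.3%) were lower, against 18.5% of all named genes. This background was not matched for signal level. At the same unadjusted threshold 2 of the 39 (5.13%) were higher, Eif4ebp1 and Eif6. The share of all named genes for that direction is not given here. Neither count was repeated with other scalings.

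Eif6 signals were 1720 untreated and 3087 stimulated in WT, 972 and 2204 in KO, and 1495 and 3230 in KI. All 3 stimulated arrays lay above all 3 untreated ones, and KO was the lowest genotype in each state. The signal was 1.79-fold higher in WT, 2.27-fold in KO and 2.16-fold in KI, a mean log2 change of 1.05 (SE 0.13, limma adjusted p = 0.0133). The call was lost when any single array was left out (limma adjusted p 0.141 to 0.277, log2 change 0.98 to 1.15); such fits called at most 15 of all probe sets, against 1032 with all 6 arrays.

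Eif4ebp1 encodes 4E-BP1, which mTOR phosphorylates to release eIF4E. Its signals were 601 and 895 in WT, 622 and 1272 in KO, and 483 and 1187 in KI. Stimulated arrays again lay above all untreated ones, by 1.49-fold in WT, 2.05-fold in KO and 2.46-fold in KI. The mean log2 change was 0.97 (SE 0.20, limma adjusted p = 0.0432). This call was also lost with any array left out (limma adjusted p 0.190 to 0.371), and under 3 of 7 other settings of the processing.

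Its paralogue Eif4ebp2, which inhibits eIF4E in the same way, differed in the other direction without passing the test. Its probe set with the highest mean signal read 1050 untreated and 771 stimulated in WT, 1917 and 892 in KO, and 2066 and 658 in KI. Every stimulated array was below every untreated one, with a mean log2 difference of -1.07 (SE 0.25, limma adjusted p = 0.0631). A second probe set, above the floor on all 6 arrays, read 254 and 140 in WT, 136 and 229 in KO, and 462 and 512 in KI, a mean log2 difference of 0.01 with no shared direction. The remaining probe set was above the floor on 1 array only. Eif4enif1, the nuclear carrier of eIF4E, was under the floor on all 6 arrays, at 8.3 to 56.5.

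**Figure D1:**
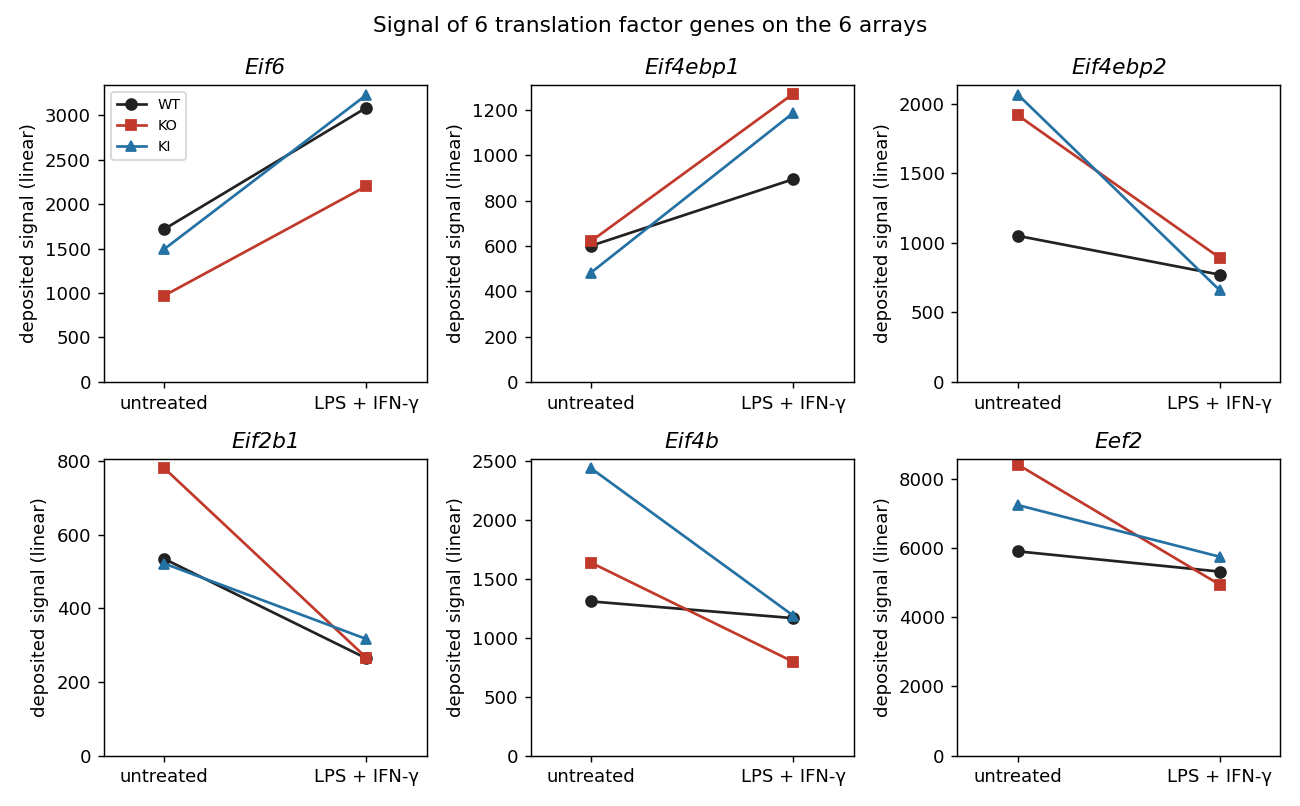
Deposited linear signal (vertical axis, from 0) of 6 translation factor genes, untreated and after LPS + IFN-γ; each point is 1 array and each line joins the 2 arrays of a genotype (circles WT, squares KO, triangles KI). Eif6 and Eif4ebp1 are higher on every stimulated array than on any untreated one, whereas Eif4ebp2, Eif2b1, Eif4b and Eef2 are lower on every stimulated array.

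Over the 39 genes, 8 (20.5%) were higher after stimulation in all 3 genotypes, where 15.9% of all named genes were. A lower signal in all 3 genotypes was seen in 18 (46.2%), against a background of 29% of all named genes. All 3 stimulated arrays lay above all untreated ones for 4 genes (Eif1ax, Eif2b5, Eif4ebp1 and Eif6), or 10.3% beside 10.2% of all named genes. They lay below for 10 genes (Eef1a1, Eef1a2, Eef1b2, Eef2, Eif2a, Eif2b1, Eif3l, Eif4a1, Eif4b and Eif4ebp2), or 25.6% beside 18.3%. These counts of separated arrays were not repeated with other scalings. Another Eif1ax probe set, above the floor on 5 arrays, separated the states the other way, every stimulated array being below every untreated one. A genotype with both arrays under the floor has a difference of 0, so such a gene can count in neither direction. Of the 39 genes 89.7% were above the floor on all 6 arrays, against 66.6% of all named genes tested. The background shares were not matched for this. The median log2 difference was -0.20 for the 39 genes and -0.13 for all named genes. Centring each array on its own median moved these to -0.03 and 0.03, and the counts of higher and lower genes to 11 and 13 of 39, with 29.2% and 20.7% of all named genes. The split of calls over all named genes went from 359 risen and 443 fallen to 522 and 344 with it.

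**Figure D2:**
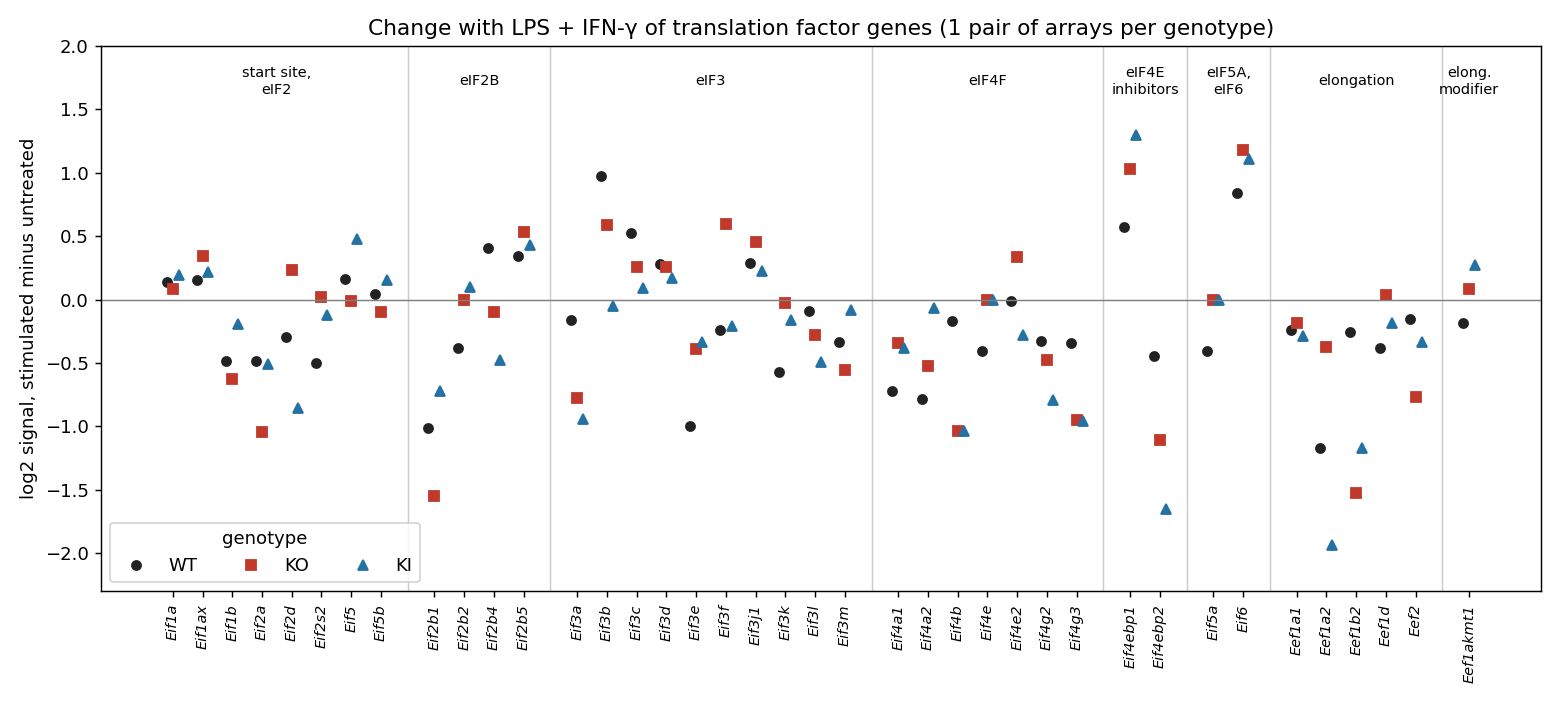
Log2 signal of the stimulated minus the untreated array (vertical axis) for the 39 tested translation factor genes, grouped by role along the horizontal axis, with 1 symbol per genotype and no error because each is a single pair of arrays. The cap-binding and elongation genes lie mostly below 0 in all 3 genotypes, while Eif6 and Eif4ebp1 lie above 0.5 in each.

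In the cap-binding eIF4F group, which here also takes in Eif4b, Eif4e2 and Eif4g2, no gene passed the test. Of the 7 tested genes, 5 were lower in all 3 genotypes and none higher, where 29% of all named genes were lower. With arrays centred on their median 4 of the 7 were lower, against 20.7% of all named genes. Its median log2 difference was -0.48, against -0.13 for all named genes; it was -0.32 with arrays centred on their median and -0.46 after quantile normalisation. Eif4a1, the main eIF4A helicase, read 1469 and 892 in WT, 1272 and 1003 in KO, and 1310 and 1006 in KI, without overlap (mean log2 difference -0.48, limma adjusted p = 0.116). Its near-identical paralogue Eif4a2 read 3140 and 1824 in WT, 4122 and 2864 in KO, and 1866 and 1787 in KI, so the genotypes' ranges overlap. Hybridisation of one paralogue's RNA to the other's probes was not tested.

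Eif4b, which stimulates that helicase, read 1311 and 1169 in WT, 1640 and 799 in KO, and 2442 and 1191 in KI. The log2 difference was -0.17 in WT and -1.04 in both KO and KI, for a mean of -0.75 (SE 0.22, limma adjusted p = 0.105). A second Eif4b probe set had the same direction, with a mean of -1.10 (limma adjusted p = 0.0684). The scaffold gene Eif4g3 read 262 and 206 in WT, 535 and 277 in KO, and 494 and 254 in KI, and Eif4g2, a scaffold that does not bind eIF4E, read 221 and 176, 339 and 244, and 418 and 242. Both were lower within each genotype, but their WT arrays were low in either state.

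The cap-binding protein itself was barely measured. Eif4e was above the floor on the untreated WT array alone, at 130, and read 56.7 to 92.1 on the other 5. Eif4e2, a second cap-binding protein that acts as a repressor, lay between 211 and 316 on the 6 arrays, with a mean log2 difference of 0.01. Eif4h, a helicase cofactor, was under the floor on every array at 21.7 to 54.9.

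No elongation factor gene passed the test either. Of 5 tested, 4 had a lower signal in all 3 genotypes, or 3 with arrays centred on their median, beside the same 29% and 20.7% of all named genes. The median log2 difference was -0.42 (-0.25 with median centring, -0.54 after quantile normalisation). Eef2, the translocase, read 5900 and 5316 in WT, 8404 and 4936 in KO, and 7236 and 5744 in KI. All stimulated arrays were below all untreated ones, by a log2 difference of -0.15 in WT, -0.77 in KO and -0.33 in KI (mean -0.42, SE 0.16, limma adjusted p = 0.17). The gene with the highest mean signal among the 39 was Eef1a1, which delivers aminoacyl-tRNA to the ribosome.

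Eef1a1 read 28471 and 24175 in WT, 26576 and 23453 in KO, and 27948 and 22922 in KI. These small differences (mean log2 -0.23, SE 0.12, limma adjusted p = 0.288) did not overlap between states. With arrays centred on their median the mean log2 difference of Eef1a1 was -0.07. Eef1a2, the form of muscle and neurons, read 419 and 186, 518 and 401, and 741 and 194, a mean log2 difference of -1.16 (limma adjusted p = 0.112). The exchange factor subunit Eef1b2 read 117 and 95.4 in WT, 302 and 105 in KO, and 220 and 41.8 in KI, so 2 stimulated arrays were under the floor. A second Eef1b2 probe set was above the floor on 2 arrays only and did not separate the states. Eef1d, the partner of Eef1b2, was the exception, at 1138 and 875, 762 and 781, and 1100 and 969, with no shared direction.

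Eef1g, a structural eEF1 subunit and the member of lowest mean signal, read 27.8 and 10.5 in WT, 6.2 and 3 in KO, and 22.2 and 3.3 in KI, all under the floor. Eef2k, the kinase that inhibits eEF2, was also under it on all arrays, at 13.4 to 71.5. Eef1akmt1, a lysine methyltransferase of eEF1A, lay between 352 and 528 with a mean log2 difference of 0.06 (limma adjusted p = 0.886).

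Genes of the eIF3 scaffold had no common direction, and none passed the test. Of 10 tested genes 3 were higher in all 3 genotypes (Eif3c, Eif3d and Eif3j1) and 5 lower (Eif3a, Eif3e, Eif3k, Eif3l and Eif3m). These are 30% and 50%, against 15.9% and 29% of all named genes. The median log2 difference was -0.10, and 0.07 with median centring. Centring left 4 higher (40%) and 2 lower (20%), against 29.2% and 20.7% of all named genes. Eif3a, the largest core subunit, read 555 and 496 in WT, 968 and 566 in KO, and 904 and 470 in KI (mean log2 difference -0.63, limma adjusted p = 0.149). Its untreated WT array was below the stimulated KO array, so the states overlap.

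Eif3b, the other core scaffold subunit, read 1329 and 2615 in WT, 1450 and 2180 in KO, and 2723 and 2633 in KI. It was higher after stimulation in WT and KO but already high in untreated KI. Eif3e, a peripheral subunit, read 1046 and 523 in WT, 936 and 717 in KO, and 642 and 510 in KI, with a mean log2 difference of -0.57 (limma adjusted p = 0.154). Eif3k read 6077 and 4090 in WT and 3707 to 4140 on the other 4 arrays, so its difference was almost all in WT. Second probe sets of Eif3b and Eif3e were above the floor on only 1 and 4 arrays, so they give no usable direction.

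Eif3c lay at 3149 to 4880, Eif3d at 1960 to 2768, Eif3l at 2340 to 3892 and Eif3m at 1520 to 2228, with mean log2 differences of 0.29, 0.24, -0.29 and -0.32. Of these, Eif3l alone separated the states, its 3 stimulated arrays being lower than its untreated ones.

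Among the 4 tested eIF2B genes, Eif2b1, the regulatory alpha subunit through which phosphorylated eIF2 is sensed, had the largest difference. It read 534 and 264 in WT, 781 and 266 in KO, and 522 and 317 in KI. Every stimulated array was below every untreated one, with a mean log2 difference of -1.10 (SE 0.25, limma adjusted p = 0.0573). Eif2b5, the catalytic epsilon subunit, was higher instead, at 376 and 478, 359 and 519, and 452 and 609 (mean log2 0.44, limma adjusted p = 0.224), and both of its probe sets had that direction. Eif2b2, the beta subunit, read 857 and 657 in WT, 776 and 773 in KO, and 466 and 500 in KI. Eif2b4, the delta subunit, read 407 and 540, 385 and 360, and 436 and 314. Neither had a direction shared by the 3 genotypes.

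Of 8 tested genes for start-site selection and the eIF2 ternary complex, 2 were higher and 2 lower in all 3 genotypes. Each is 25%, against 15.9% and 29% of all named genes. Eif1b, an eIF1 homologue that guards start-codon choice, read 3231 and 2307 in WT, 2567 and 1668 in KO, and 2270 and 1992 in KI (mean log2 -0.43, limma adjusted p = 0.123). Eif2a, an alternative initiator tRNA carrier distinct from the eIF2 alpha subunit, read 353 and 253, 496 and 241, and 336 and 236 (mean log2 -0.68, limma adjusted p = 0.166). Eif1a and Eif1ax, both encoding eIF1A, were slightly higher, with mean log2 differences of 0.14 and 0.24; another Eif1ax probe set, above the floor on 5 arrays, gave -0.90. The eIF2 beta gene Eif2s2, the GTPase activator gene Eif5 and Eif2d lay at 178 to 270, 902 to 1253 and 159 to 365, with no shared direction. The group's median log2 difference was -0.08, and 0.08 with median centring.

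Eif5a, whose hypusine-bearing protein helps ribosomes past stalling sequences, was above the floor on untreated WT alone, at 130, and read 24.6 to 97.7 elsewhere. In all, 35 of the 39 tested genes (89.7%) were above the floor on all 6 arrays, against 66.6% of all named genes tested. Of the 11 genes with several tested probe sets, 6 had probe sets of opposite sign, but in Eif4ebp2 alone were such probe sets above the floor on all 6 arrays.

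Within single genotypes, differences have no error and were counted where they reached 1 in log2 units. In WT no gene was higher and 2 were lower by that much (Eef1a2 and Eif2b1), against 8.82% and 10.6% of all named genes. In KO 2 were higher (Eif4ebp1 and Eif6) and 5 lower (Eef1b2, Eif2a, Eif2b1, Eif4b and Eif4ebp2), against 6.74% and 10.4%. In KI the same 2 were higher and 4 lower (Eef1a2, Eef1b2, Eif4b and Eif4ebp2), against 5.88% and 8.6%. The median log2 difference of the 39 genes was -0.24 in WT, -0.03 in KO and -0.18 in KI, beside -0.14, -0.08 and -0.03 for all named genes.

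The response was then compared between genotypes; both comparisons share the 2 WT arrays. Against WT, the log2 change was more negative by at least 1 in KO for Eef1b2 alone (-1.52 against -0.26 in WT) and more positive for none, against 7.58% and 5.38% of all named genes. A second Eef1b2 probe set, above the floor on 2 arrays only, gave a KO minus WT difference of 0.32. In KI the log2 change was more negative for Eif4ebp2 (by a difference of -1.21) and Eif3b and more positive for none, against 9.15% and 6.99%. Among genes that reached the 75th percentile of signal (532), the most negative KO minus WT differences were -0.87 for Eif4b, -0.66 for Eif4ebp2, -0.62 for Eef2 and -0.61 for Eif3a. The most positive were 0.80 for Eef1a2, 0.61 for Eif3e, 0.54 for Eif3k and 0.46 for Eif4ebp1. For KI minus WT they were Eif4ebp2, Eif3b, Eif2b4 (-0.88) and Eif4b (-0.87) on the negative side, and Eif4ebp1 (0.72), Eif4a2 (0.72), Eif3e (0.67) and Eif2b2 (0.49) on the positive side. Other probe sets of Eif4ebp2 and Eif4b, also above the floor on all 6 arrays, did not share these values. The Eif4ebp2 one gave 1.61 for KO minus WT and 1.01 for KI minus WT, the opposite direction, and the Eif4b one gave -0.43 and 0.48. The direction for Eif4ebp2 in both comparisons, and for Eif4b in KI, thus differs between probe sets.

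The arrays behind these differences varied by gene. For Eif4ebp2, Eif3a and Eef2 the untreated arrays of KO and KI were above WT and the stimulated ones lay closer together. For Eif4b this held in KI, while in KO the log2 difference from WT was 0.32 untreated and -0.55 stimulated. For 3 of the 4 most positive KO genes the stimulated arrays differed more: 0.31 untreated and 1.10 stimulated for Eef1a2, -0.16 and 0.45 for Eif3e, and 0.05 and 0.51 for Eif4ebp1. The median absolute log2 difference from WT over the 39 genes was 0.32 in untreated and 0.17 in stimulated KO, and 0.41 and 0.14 in KI. Over all named genes it was 0.36 and 0.25, and 0.47 and 0.27, so the narrowing was not limited to these genes.

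No translation factor passed the genotype test over both states in the limma fit. At the adjusted threshold 0 of 39 genes passed for KO against WT and 0 for KI against WT. Over all named genes 0% did in either comparison. Cebpb itself was therefore not called in KO, so the lack of calls does not show equal levels. At an unadjusted p under 0.05 in that fit, 2 genes differed in KO (Eif5b and Eif6) and 4 in KI (Eif2b2, Eif3f, Eif3j1 and Eif5b), against 10.7% and 17.2% of all named genes. Markers of other cells also differed by genotype: B cell markers summed to 6517 untreated and 3354 stimulated in WT, 5653 and 2536 in KO, and 1520 and 1646 in KI. The dendritic cell marker Itgax read 816 and 1630 in WT, 1799 and 1526 in KO, and 7301 and 3141 in KI. The other dendritic cell markers did not follow it. Flt3 read 746 and 414 in WT, 756 and 262 in KO, and 375 and 138 in KI. Ccr7 read 85.2 and 436, 140 and 1897, and 78.5 and 335. Xcr1 read 240 and 250, 232.5 and 775, and 184 and 312, and Zbtb46 was under the floor on every array. Red cell markers summed to 1903 and 1247 in WT, 1192 and 936.5 in KO, and 186 and 156 in KI. Mesothelial and fibroblast markers summed to 4682 and 5584 in WT, 2525.5 and 2454 in KO, and 2554 and 2571 in KI. Their part in the genotype values below was not tested.

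Eif5b, which joins the ribosomal subunits, read 317 and 327 in WT, 670 and 627 in KO, and 616 and 686 in KI. Its log2 difference between states was at most 0.16 in size in each genotype, and both WT arrays lay below the other 4. The log2 difference was 1.01 for each of KO and KI (SE 0.22, limma adjusted p = 0.432 and 0.224). A second Eif5b probe set, close to the floor and above it on 4 arrays, gave 0.37 for KO and 0.03 for KI.

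Eif3j1, a loosely attached eIF3 subunit, read 691 and 845 in WT, 787 and 1078 in KO, and 1487 and 1739 in KI. KI was higher than WT by 2.15-fold untreated and 2.06-fold stimulated (log2 1.07, SE 0.17, limma adjusted p = 0.224). Eif3f, an eIF3 subunit that also binds mTOR, went the other way at 275 and 233 in WT, 146 and 222 in KO, and 113 and 61.7 in KI (KI minus WT log2 -1.27, SE 0.32, limma adjusted p = 0.224). These were the only translation factor genes that differed by at least 1 in both states, Eif3j1 higher in KI (0.798% of all named genes) and Eif3f lower (1.74%).

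By state, 3 genes were higher by at least 1 in untreated KO than WT (Eef1b2, Eif4g3 and Eif5b) and none lower, against 6.74% and 4.18% of all named genes. The second Eef1b2 probe set had the other direction, at 147 in untreated WT and 118 in untreated KO. In stimulated KO only Eef1a2 was higher and none lower, against 2.75% and 3.32%. In untreated KI, Eif3b and Eif3j1 were higher and Eif3f lower, against 8.78% and 10.2%. In stimulated KI, Eif3j1 and Eif5b were higher and Eif3f lower, against 1.92% and 4.8%. Eif6 was lower in KO than WT in both states (log2 -0.66, SE 0.16, limma adjusted p = 0.432).

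**Figure D3:**
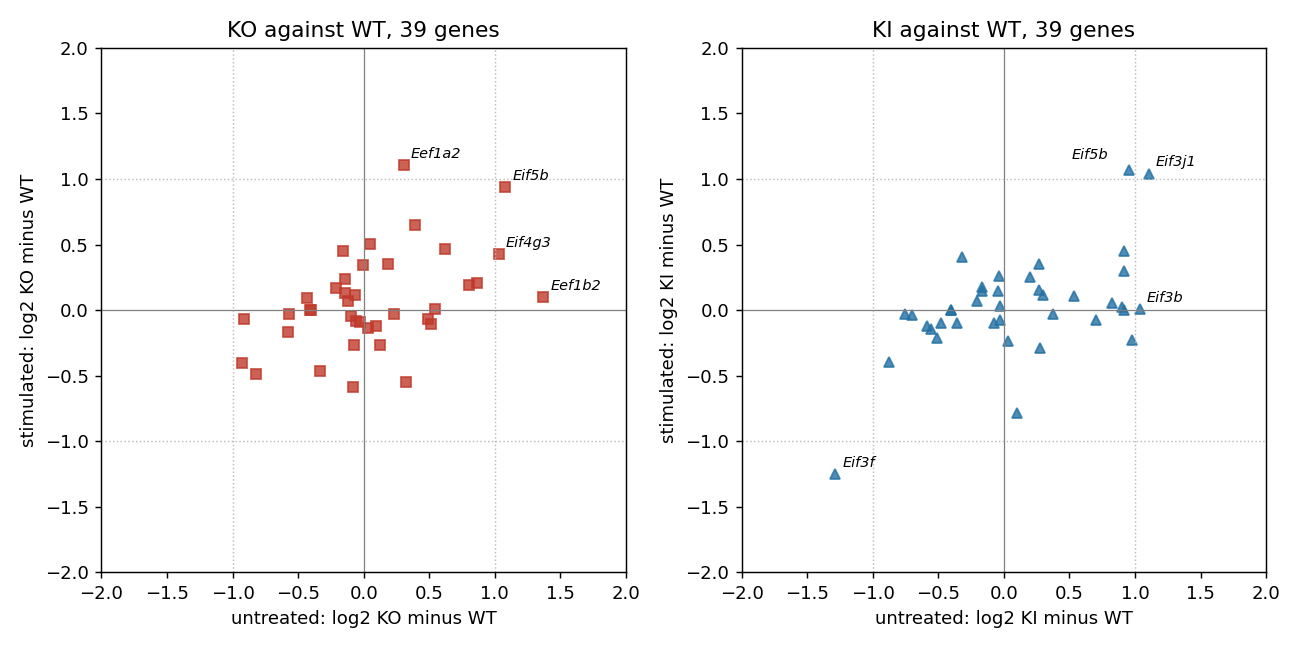
Log2 difference from WT of the 39 tested genes, untreated on the horizontal and stimulated on the vertical axis, for KO (left) and KI (right); each point is 1 gene from single arrays, and dotted lines mark a difference of 1. Eif5b is high on both axes in both panels, and Eif3j1 and Eif3f stand at opposite ends in KI.

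Other genes of the translation machinery were read from lists. For the counts in this paragraph and the next, 5.31% of all named genes rose and 6.55% fell in the same limma test. Of 18 signalling genes 2 rose and 1 fell: Ppp1r15a, which directs dephosphorylation of eIF2 alpha, by a mean log2 of 2.54 (SE 0.43, limma adjusted p = 0.0276), and Larp1, a repressor of pyrimidine-run messages, by 2.05 (limma adjusted p = 0.0383), while Akt1, a kinase upstream of mTOR, had a mean of -0.88 (limma adjusted p = 0.0360). Of 21 cytosolic aminoacyl-tRNA synthetases 2 rose, Wars, the tryptophanyl enzyme known to be induced by interferon-γ (log2 1.84, SE 0.22, limma adjusted p = 0.0117), and Rars, the arginyl enzyme (0.59, limma adjusted p = 0.0438); Cars had a mean of 0.99 (limma adjusted p = 0.103).

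Of 28 tested cytosolic ribosomal protein genes 3 fell and none rose: Rpl10a (log2 -1.14, limma adjusted p = 0.00802), Rps7 (-0.86, 0.0139) and Rpl6 (-0.60, 0.0381). In that list 19 genes (67.9%) were lower in all 3 genotypes, against 29% of all named genes, and its median was -0.32. With median centring the median was -0.16. Centring left 14 lower (50%) and 4 higher (14.3%), against 20.7% and 29.2% of all named genes. None of 10 termination, recycling and poly(A)-binding genes passed, the lowest p being those of Naca (-0.997, limma adjusted p = 0.0573), Paip2 (-0.73, 0.0642) and Pabpc1 (0.92, 0.157), nor did any of 5 mitochondrial factors (Tsfm -0.46, Mtif2 -0.49, Gfm1 -0.13). Of 17 proliferation genes 1 fell, Ccna2, a cyclin of DNA replication (-1.62, limma adjusted p = 0.0326), which read 355 and 170 in WT, 998 and 229 in KO, and 534 and 167 in KI. The list's median was -0.21 in WT, -1.65 in KO and -0.81 in KI, and its part in the elongation and cap-binding values was not tested.

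**Figure D4:**
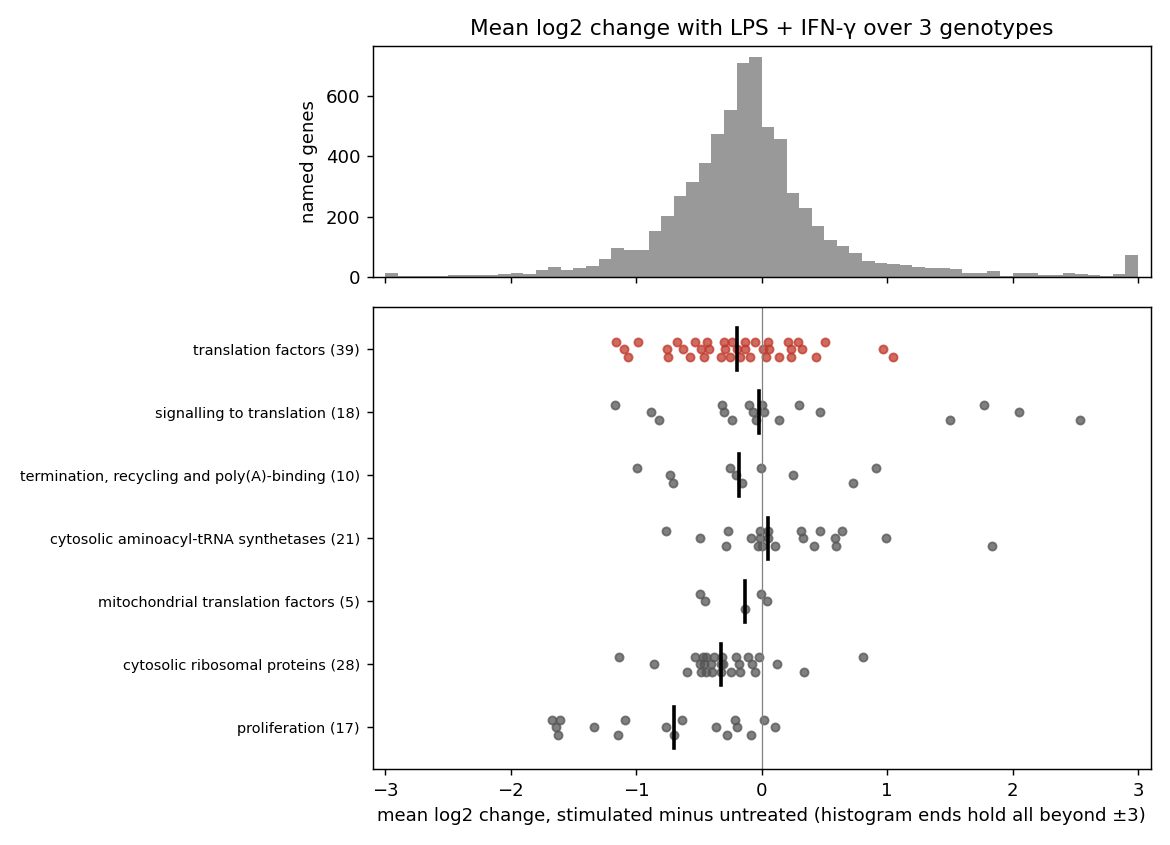
Mean log2 change with LPS + IFN-γ over the 3 genotypes (horizontal axis): above, a histogram of all 6767 named genes tested, whose end bins hold all values beyond the axis; below, each gene of the translation factors and of 6 other lists, with the number tested in brackets and a bar at the median. The median bar is at -0.20 for translation factors and -0.32 for ribosomal proteins, and 4 signalling genes lie above 1.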

How the data were processed

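The deposited values are linear signal intensities, which the authors derived by MAS5, according to the submitters' processing notes (version and scaling target not given in the sources used here). They ran from 0.1 to 39853, and arrays had trimmed means of 500.3 to 500.4 (2% off each end). Per the labels' protocols, RNA was extracted with Trizol and put on Affymetrix arrays. Signals were rescaled to 1 trimmed mean, floored at the 40th percentile (98.0) and converted to log2; 66 control probe sets and those never above the floor were left out. Differences that touch the floor are understated. A gene was represented by its probe set of highest mean log2 intensity. Of 12422 probe sets, the platform annotation gave 10833 a single symbol, 396 several and 1193 none; all 60 translation factor probe sets matched RefSeq (GRCm38.p6).

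Stimulation and genotype effects came from limma 3.58.1 in R 4.3.3 (additive fit over 6 arrays, 2 residual degrees of freedom, eBayes with intensity trend, Benjamini-Hochberg adjustment at 0.05); the code was tested on simulated data. The genes and lists were chosen with earlier results of these data known. Values on all arrays are given for members past the test, the 4 largest induction differences in each direction per genotype, members of highest and lowest mean signal, and a set of core factors (those under or near the floor by range); Eif4g1 and Eif2s1 were not analysed here. Other genes were singled out after their values were seen. Alternatives changed the floor, pseudocount (50), scaling, filter, variance model, representative probe set and arrays used. The number of arrays limits precision.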

Additional observations from a re-analysis of the deposited data

How the results depend on the processing

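The count of risen genes (2) was 1 after quantile normalisation, 1 with eBayes without the trend, 0 with no filter on low signals (69 probe sets called in all) and 0 to 0 with an array left out. The count of fallen genes (0) was 1 with the floor at the 60th percentile (Eif2b1) and 4 with a pseudocount of 50 and no floor (Eef1a2, Eif2b1, Eif4b and Eif4ebp2). Eif6 passed in 6 of 7 other settings (log2 change 1.01 to 1.21) and Eif4ebp1 in 4 of 7 (0.91 to 1.13). Genotype calls, 0 for KO and for KI, ranged from 0 to 2 with an array left out; without the stimulated WT array these were Eif4e and Eif5a, both near the floor.

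The median log2 difference was -0.13 in WT and -0.081 in KI with the floor at the 60th percentile, 0 in KO after quantile normalisation, and -0.11 in WT, 0.16 in KO and 0.00107 in KI with arrays centred on their median. With a threshold of 1.5-fold the counts of differences between genotypes were 9 for induction in KO, 11 for induction in KI, 9 and 4 for untreated and stimulated KO, and 14 for untreated KI (4 for stimulated KI, from 3). With the floor at the 20th percentile, induction in KO gave 2, and untreated and stimulated KI 5 each; at the 60th, induction in KO and stimulated KO gave 0. Quantile normalisation gave 5 for untreated KI; centring gave 1 for induction in KI, 2 for stimulated KO and 10 for untreated KI; a pseudocount gave 0 for stimulated KO and 1 for stimulated KI. Neither Eif6 nor Eif4ebp1 changed direction in any setting run. The causes were not tested. With 1 array per group, differences within a genotype have no error, and Eif4e, Eif5a, Eef1g, Eef2k, Eif4enif1 and Eif4h were too dim to be compared.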
